A study of Mus musculus with 32 samples.

Results

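The genes described here are 10 well-known transcriptional targets of the tumour suppressor p53, measured by RNA sequencing in mouse kidneys: *Cdkn1a*, *Mdm2*, *Ccng1*, *Bax*, *Trp53inp1*, *Phlda3*, *Sesn2*, *Eda2r*, *Pmaip1* and *Gdf15*. They were chosen by name, with earlier results of these data known, and all 10 were found among the 53700 genes of the deposited count table. Of these, 9 passed the filter on low values and were among the 13961 genes tested, while *Eda2r* was under the filter and is described by its counts and by a fit without the filter. Whole kidneys of 32 male C57BL/6 mice of the iKspCre-Pkd1del line were compared, in a model of polycystic kidney disease (PKD). In this line a kidney-specific Cre, switched on by tamoxifen, removes exons 2 to 11 of *Pkd1*, the gene for polycystin 1.

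All animals carried the Cre and the floxed *Pkd1*, and the groups differed in what they were given. The 8 wildtype mice got no tamoxifen and are labelled as 109 days old, although the protocol ends the experiment for all mice at day 95. The 12 PKD mice were given tamoxifen (150 mg/kg) on days 18 and 19 and stayed on normal chow until they were 95 days old. The 12 PKD + Salsalate mice had the same tamoxifen and, from day 81, chow with salsalate (2.5 g/kg), a prodrug of salicylate, for 2 weeks, and were also 95 days old. Tamoxifen, *Pkd1* deletion and, if the label holds, age therefore cannot be told apart in comparisons with wildtype, whereas PKD + Salsalate and PKD kidneys share all of these. The study had chosen the 12 mice of each PKD group for comparably mild cysts, which limits both groups as a model of the disease.

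The protein p53 is a transcription factor that is kept low by the ubiquitin ligase Mdm2 and is stabilised by DNA damage and other stress. Its targets arrest the cell cycle (*Cdkn1a*), trigger apoptosis (*Bax*, *Pmaip1*), adjust metabolism and redox state (*Sesn2*), act on neighbouring cells (*Gdf15*) and feed back on p53 itself (*Mdm2*, *Ccng1*, *Trp53inp1*). Several of them also respond to signals other than p53, such as the integrated stress response through Atf4. In the kidney, *Cdkn1a* and *Gdf15* are known to rise with tubular injury.

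p53 binds a pair of half-sites, and the DNA around each gene start was searched because it shows where a member carries the recognition letters of the factor that defines the group. The search covered 5 kb on each side of the annotated gene start in GRCm39, on both strands, with the p53 half-site as the motif. With no mismatch and a spacer of at most 13 bases, a pair was found near 475 of 13940 tested genes (3.41%) and near 2 of the 10 members, *Cdkn1a* and *Trp53inp1*. A further search, added after this result was seen, allowed no spacer and at most 1 mismatch outside the core of the half-sites. It found a pair near 202 genes (1.45%) and near 2 members, *Cdkn1a* and *Ccng1*. In the sequences below, half-sites are in capitals, and the spacer and 10 bases on each side are in lower case, with the coordinates of the pair itself. The pairs of *Cdkn1a* share a half-site and lie just upstream of its annotated start, that of *Trp53inp1* lies further upstream, and that of *Ccng1* lies in an intron and is read on the minus strand.
*Cdkn1a*, no mismatch, chr17:29309880-29309911, plus strand: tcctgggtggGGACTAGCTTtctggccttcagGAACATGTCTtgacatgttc
*Cdkn1a*, no spacer, chr17:29309902-29309921, plus strand: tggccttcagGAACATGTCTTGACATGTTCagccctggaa
*Trp53inp1*, no mismatch, chr4:11155112-11155132, plus strand: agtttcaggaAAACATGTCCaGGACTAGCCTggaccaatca
*Ccng1*, no spacer, chr11:40645763-40645782, minus strand: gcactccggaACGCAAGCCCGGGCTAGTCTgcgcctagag
A match to these letters is a description of the sequence, and no binding was measured.

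Total counts on genes were between 11193136 and 109807664 per kidney. *Pkd1* itself was between 53.1 and 86.4 CPM in wildtype, between 70.7 and 113 CPM in PKD and between 67.4 and 119.8 CPM in PKD + Salsalate kidneys (CPM, counts brought to the same library size with the trimmed mean of M-values). Its count was not lower in either deleted group. Since it is taken over the whole gene, of which the deletion removes a part in some cells only, it does not check the labels. Of the wildtype library names, 5 end in the letter R and 3 do not, and what the letter stands for is not given in the sources used here. No PKD or PKD + Salsalate library name ends in R. The ending is therefore partly confounded with group wherever all wildtype kidneys are compared with a deleted group. The sets of wildtype libraries stood apart from each other: 48.1% of the 13961 tested genes differed between them (edgeR's quasi-likelihood test, adjusted p under 0.05). The share of alignments on no gene was between 13.2% and 15.7% in the 5 and between 7.60% and 9.77% in the 3. For members whose call changed with the set used, values against each set are given below. PKD replicate 10 stood apart by RNA of liver genes, with *Alb* at 1930 CPM.

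In PKD against wildtype, the p53 targets differed from each other in their change. *Cdkn1a* and *Gdf15* were far higher and did not overlap with wildtype, *Pmaip1* rose 2.02-fold, *Phlda3* rose slightly and *Bax* fell slightly. *Mdm2*, *Ccng1*, *Trp53inp1* and *Sesn2* did not pass the test. In all, 4 of the 9 tested members rose and 1 fell, against a background in which 24.1% of all tested genes rose and 25.0% fell (49.1% together). The number called in either direction is thus near the background. The count was again 4 higher and 1 lower against either set of wildtype libraries alone and without PKD replicate 10, but against the 3 not ending in R the genes called were *Cdkn1a*, *Gdf15*, *Pmaip1* and *Mdm2* as higher and *Sesn2* as lower. The median log2 fold change of the 9 was 0.09, and that of all tested genes was -0.01. With salsalate, 1 of the 9, *Pmaip1*, was lower than in PKD kidneys, where 0.580% of all tested genes were called and 0.329% were lower. Without PKD replicate 10 it was 0 of 9 by the same test, against 2 of 9 at an unadjusted p under 0.05 with all kidneys (*Pmaip1* and *Ccng1*). DESeq2's Wald test and limma-voom, with all kidneys, each called 1 of the 9. Compared to wildtype, 5 of the 9 rose in PKD + Salsalate kidneys (*Cdkn1a*, *Gdf15*, *Phlda3*, *Pmaip1* and *Ccng1*) and 0 fell, where 21.8% of all tested genes rose and 23.2% fell (44.9% together). With just the 5 wildtype libraries ending in R, 6 rose and 1 fell in this comparison, with *Sesn2* added as higher (log2 fold change 0.41, adjusted p = 0.00408) and *Bax* as lower (-0.42, adjusted p = 0.00208). With just the 3 others, 4 rose and 0 fell, namely *Cdkn1a*, *Gdf15*, *Ccng1* and *Mdm2* (0.26, adjusted p = 0.00955 for the last). The comparisons between groups share the PKD or the wildtype kidneys, so their values are set side by side and are not independent of each other. For the fits against either set of wildtype libraries alone, the share of all genes called is not given here. Counts of members or list genes from those fits, here and below, therefore stand without a background. Adjusted p-values below are from edgeR's quasi-likelihood test over all tested genes, with the Benjamini-Hochberg method.

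**Figure D1:**
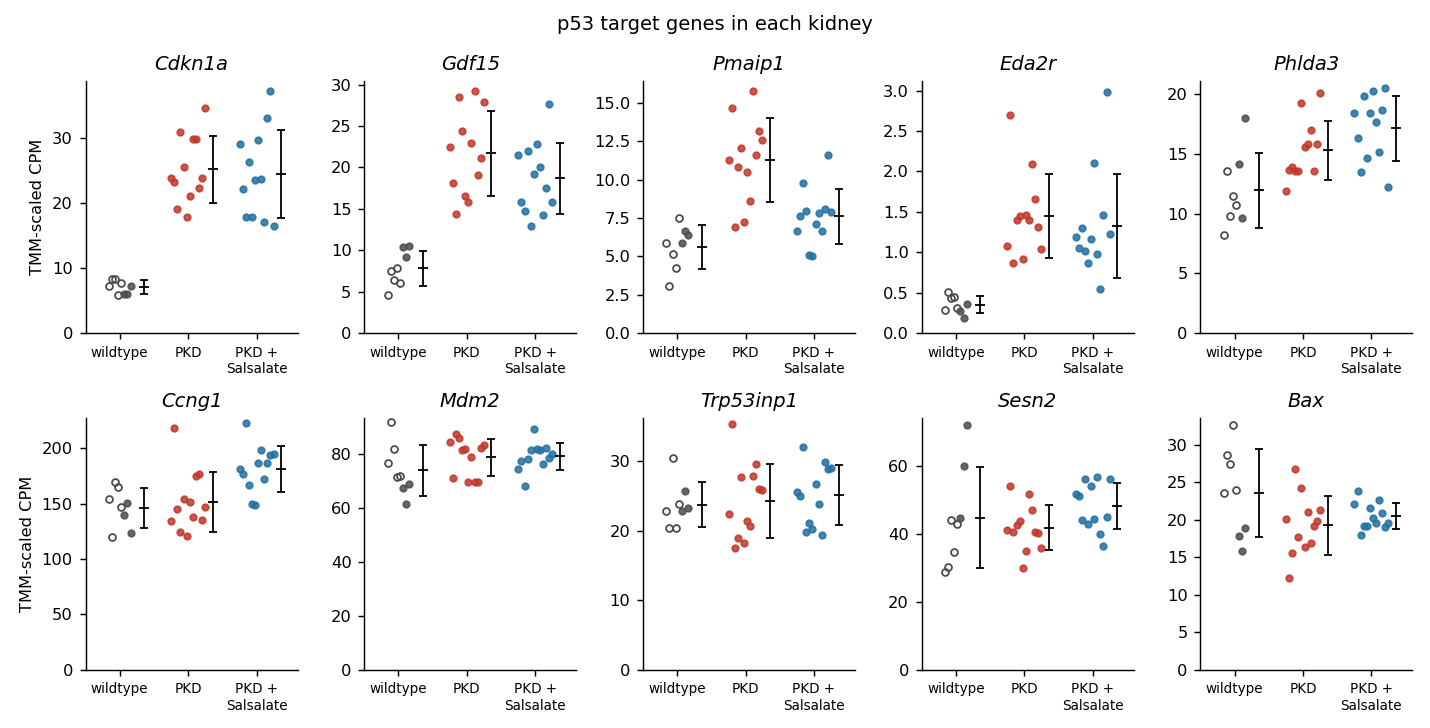
Level of each of the 10 p53 targets in each kidney, in CPM after scaling by the trimmed mean of M-values, with 1 panel per gene and 1 point per kidney (8 wildtype, 12 PKD, 12 PKD + Salsalate), and bars for the mean ± SD of each group. Open wildtype points are the 5 libraries whose names end in R and filled ones the 3 others. The PKD kidneys lie above every wildtype kidney for *Cdkn1a*, *Gdf15* and *Eda2r* (lowest 17.8, 14.4 and 0.872 CPM against a highest of 8.36, 10.5 and 0.508), while the groups overlap for the other 7 genes.

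*Cdkn1a* (ENSMUSG00000023067, chromosome 17, 29309936 to 29319701, plus strand) encodes p21, the inhibitor of cyclin-dependent kinases through which p53 arrests the cell cycle. It was at a lowest of 5.8, a median of 7.23 and a highest of 8.36 CPM in the 8 wildtype kidneys. In the 12 PKD kidneys these values were 17.8, 23.9 and 34.6 CPM, and in the 12 PKD + Salsalate kidneys 16.5, 23.6 and 37.2 CPM. Every kidney of both deleted groups was thus above every wildtype kidney, which held in PKD against wildtype for 5.21% of all tested genes in this direction and in PKD + Salsalate against wildtype for 4.46%. The rise was 3.57-fold in PKD (log2 fold change 1.84 ± 0.15 SE, adjusted p = 1.6e-11) and 3.48-fold in PKD + Salsalate kidneys (1.80 ± 0.15 SE, adjusted p = 4.82e-11). Between PKD + Salsalate and PKD the log2 fold change of *Cdkn1a* was -0.04 (95% interval -0.29 to 0.21, adjusted p = 0.961). Raw counts of *Cdkn1a* were between 76 and 200 in wildtype and between 231 and 1140 in PKD kidneys. The antisense gene *Dino*, which overlaps 504 of the 6045 exon bases of *Cdkn1a* on the other strand, had at most 1 count in any kidney.

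*Ccng1* (chromosome 11, minus strand) encodes cyclin G1, which acts with protein phosphatase 2A on Mdm2. It was the highest of the members per length, at 33.2 ± 4.09 RPKM (CPM per kilobase of exon, mean ± SD, n = 8) in wildtype, where *Cdkn1a* was at 1.17 ± 0.168 RPKM. Its lowest, median and highest values were 119.9, 148.7 and 169.8 CPM in wildtype, 120.7, 145.8 and 218.2 CPM in PKD and 148.3, 183.7 and 222.3 CPM in PKD + Salsalate kidneys. The PKD and wildtype ranges overlapped, with 3 PKD kidneys (174.9, 176.8 and 218.2 CPM) above the highest wildtype kidney, whereas all 12 PKD + Salsalate kidneys were above the PKD median. The log2 fold change was 0.05 in PKD against wildtype (95% interval -0.13 to 0.24, adjusted p = 0.639) and 0.31 ± 0.09 SE in PKD + Salsalate against wildtype (adjusted p = 0.00622). Between PKD + Salsalate and PKD it was 0.26 ± 0.08 SE, with an unadjusted p of 0.00335 from edgeR's test and an adjusted p of 0.148. Without PKD replicate 2, the kidney at 218.2 CPM, that adjusted p of *Ccng1* was 0.0377 and the log2 fold change 0.32.

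*Mdm2* (chromosome 10, minus strand), the ubiquitin ligase that degrades p53 and is induced by it, was at 61.4, 71.5 and 91.8 CPM (lowest, median, highest) in wildtype. It was at 69.5, 81.5 and 87.4 CPM in PKD and at 68.2, 79.2 and 89.3 CPM in PKD + Salsalate kidneys. The 3 ranges overlapped almost entirely. Its log2 fold change was 0.09 in PKD against wildtype (95% interval -0.04 to 0.22, adjusted p = 0.227), an interval whose upper end is below the lower end of that of *Cdkn1a* (1.52 to 2.15). Between PKD + Salsalate and PKD the log2 fold change of *Mdm2* was 0.01 (95% interval -0.11 to 0.12, adjusted p = 0.99). *Mdm2* differed between the sets of wildtype libraries: it was between 71.3 and 91.8 CPM in the 5 ending in R and between 61.4 and 68.9 CPM in the 3 others. Against these 3 alone *Mdm2* was higher in PKD by a log2 fold change of 0.25 (adjusted p = 0.011), and against the 5 alone the adjusted p was 0.995.

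*Trp53inp1* (chromosome 4, plus strand) encodes a stress-induced nuclear protein that promotes p53 activity. It was at 20.4, 23.1 and 30.5 CPM in wildtype, 17.5, 24.2 and 35.4 CPM in PKD and 19.4, 25.3 and 32.1 CPM in PKD + Salsalate kidneys. The PKD range enclosed both others. Its log2 fold change was 0.04 in PKD against wildtype (95% interval -0.19 to 0.28, adjusted p = 0.782) and 0.05 in PKD + Salsalate against PKD (-0.16 to 0.26, adjusted p = 0.93).

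*Gdf15* (chromosome 8, minus strand) encodes a secreted cytokine of the TGF-beta superfamily that is released by stressed cells. It was at a lowest of 4.64, a median of 7.62 and a highest of 10.5 CPM in wildtype, at 14.4, 21.8 and 29.2 CPM in PKD and at 12.9, 18.4 and 27.6 CPM in PKD + Salsalate kidneys. Both deleted groups lay above every wildtype kidney. *Gdf15* rose 2.73-fold in PKD against wildtype (log2 fold change 1.45 ± 0.16 SE, adjusted p = 5.65e-09) and by a log2 fold change of 1.23 ± 0.16 SE in PKD + Salsalate against wildtype (adjusted p = 1.73e-07). Between PKD + Salsalate and PKD its log2 fold change was -0.22 (95% interval -0.48 to 0.05, adjusted p = 0.645). The rise in PKD was present against either set of wildtype libraries, at a log2 fold change of 1.74 against the 5 ending in R and 1.10 against the 3 others (adjusted p = 5.18e-09 and 0.000126).

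*Pmaip1* (chromosome 18, plus strand) encodes Noxa, a BH3-only protein that releases the cell death machinery at mitochondria. It was at 3.05, 5.89 and 7.52 CPM in wildtype, at 6.91, 11.4 and 15.8 CPM in PKD and at 5.05, 7.73 and 11.6 CPM in PKD + Salsalate kidneys. The PKD + Salsalate kidneys lay between the other groups and overlapped with both, and 11 of the 12 were below the PKD median. *Pmaip1* rose 2.02-fold in PKD against wildtype (log2 fold change 1.01 ± 0.16 SE, adjusted p = 5.77e-06). In PKD + Salsalate against PKD it fell by 0.56 ± 0.14 SE on the log2 scale, with an adjusted p of 0.049, just past the threshold. The size of this fall was -0.63 to -0.51 whichever kidney was left out, but the adjusted p was under 0.05 in 11 of these 32 fits and reached 0.103. *Pmaip1* is among the genes that the study picked from these same samples, so this count of 1 is not independent evidence. Against wildtype *Pmaip1* was still higher in PKD + Salsalate kidneys, by a log2 fold change of 0.45 (adjusted p = 0.0242), though with the 3 wildtype libraries not ending in R alone it was 0.28 (adjusted p = 0.317). Without PKD replicate 10, the kidney with RNA of liver genes, the fall of *Pmaip1* was -0.56 with an adjusted p of 0.0678.

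*Bax* (chromosome 7, minus strand), the pore-forming protein of the mitochondrial death pathway, was at 15.8, 23.8 and 32.6 CPM in wildtype, 12.2, 19.6 and 26.8 CPM in PKD and 18, 19.9 and 23.9 CPM in PKD + Salsalate kidneys. Its log2 fold change in PKD against wildtype was -0.30 ± 0.12 SE (adjusted p = 0.0352), and 10 of the 12 PKD kidneys were below the wildtype median. This fall depended on the wildtype libraries. *Bax* was between 23.6 and 32.6 CPM in the 5 ending in R and between 15.8 and 18.9 CPM in the 3 others. Its log2 fold change in PKD was -0.51 against the 5 (adjusted p = 0.00023) and 0.11 against the 3 (adjusted p = 0.528). Leaving out 1 kidney took the adjusted p of *Bax* over 0.05 in 9 of 32 fits, those without wildtype replicate 2, 3, 4 or 5 or without PKD replicate 2, 3, 5, 7 or 9. With salsalate, compared to PKD, *Bax* had a log2 fold change of 0.10 (95% interval -0.12 to 0.31, adjusted p = 0.839).

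*Phlda3* (chromosome 1, plus strand) encodes a small pleckstrin homology protein that restrains Akt. It was at 8.24, 11.1 and 18 CPM in wildtype, 11.9, 14.7 and 20.1 CPM in PKD and 12.2, 18.1 and 20.5 CPM in PKD + Salsalate kidneys. All 12 kidneys of each deleted group were above the wildtype median, and the ranges overlapped. *Phlda3* rose by a log2 fold change of 0.34 ± 0.12 SE in PKD (adjusted p = 0.0209) and by 0.50 ± 0.12 SE in PKD + Salsalate kidneys against wildtype (adjusted p = 0.0011). With the 3 wildtype libraries not ending in R alone, neither passed the test (0.11, adjusted p = 0.601, and 0.28, adjusted p = 0.176). Without wildtype replicate 1 the adjusted p of *Phlda3* in PKD against wildtype was 0.0561.

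*Eda2r* (chromosome X, minus strand), a receptor of the tumour necrosis factor receptor family for ectodysplasin A2, was the lowest of the members, at 0.0467 ± 0.0142 RPKM in wildtype (mean ± SD, n = 8). It had between 3 and 10 counts per kidney in wildtype and between 12 and 132 in PKD. Scaled, these were 0.19, 0.333 and 0.508 CPM (lowest, median, highest) in wildtype, 0.872, 1.4 and 2.7 CPM in PKD and 0.547, 1.17 and 2.98 CPM in PKD + Salsalate kidneys. Every kidney of both deleted groups was above every wildtype kidney. The share of genes without overlap was taken only over the genes past the filter, which do not include *Eda2r*. *Eda2r* was tested in a fit without the filter, over 33588 genes, so that its levels in the deleted groups did not decide whether it was tested. There it rose by a log2 fold change of 2.09 ± 0.29 SE in PKD (adjusted p = 5.64e-07; 12.2% of genes rose in this fit) and by 1.95 ± 0.29 SE in PKD + Salsalate kidneys against wildtype (adjusted p = 2.66e-06; 10.5% rose). With salsalate compared to PKD, its log2 fold change was -0.13 (95% interval -0.55 to 0.28, adjusted p = 0.904).

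*Sesn2* (chromosome 4, minus strand) encodes sestrin 2, a leucine-binding stress protein that restrains mTORC1. It was at 28.8, 43.5 and 71.9 CPM in wildtype, 30, 40.7 and 53.9 CPM in PKD and 36.5, 47.9 and 56.6 CPM in PKD + Salsalate kidneys. The wildtype group was the widest, and the sets of wildtype libraries did not overlap: *Sesn2* was between 28.8 and 44.1 CPM in the 5 ending in R and between 44.5 and 71.9 CPM in the 3 others. Its log2 fold change in PKD against all wildtype kidneys was -0.10 (95% interval -0.36 to 0.17, adjusted p = 0.55). It was 0.21 against the 5 (adjusted p = 0.122) and -0.50 against the 3 (adjusted p = 0.00443), so no direction can be given for *Sesn2*. The log2 fold change of *Sesn2* from PKD to PKD + Salsalate was 0.20 (95% interval -0.04 to 0.43, adjusted p = 0.607).

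**Figure D2:**
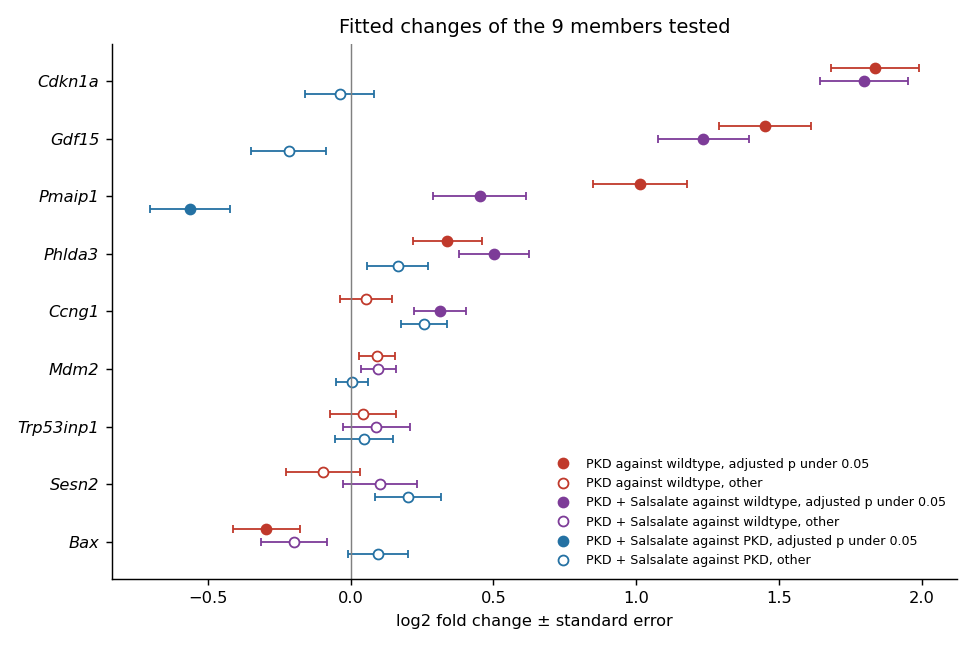
Fitted log2 fold change (x axis, ± SE) of the 9 tested p53 targets in PKD against wildtype (red), PKD + Salsalate against wildtype (purple) and PKD + Salsalate against PKD (blue), with filled points for an adjusted p under 0.05. *Cdkn1a* and *Gdf15* stand at 1.84 and 1.45 in PKD, and *Pmaip1* is the only filled blue point, at -0.56.

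The gene for p53 and its regulators were mixed in direction. *Trp53* was between 28.5 and 39.5 CPM in wildtype, between 34.8 and 48 CPM in PKD and between 33.8 and 49.2 CPM in PKD + Salsalate kidneys. It rose 1.26-fold in PKD (log2 fold change 0.34 ± 0.07 SE, adjusted p = 7.43e-05), with all 12 PKD kidneys above the wildtype median. Against the 3 wildtype libraries not ending in R alone, the log2 fold change of *Trp53* was 0.18 (adjusted p = 0.0782). *Mdm4*, an Mdm2 relative that inhibits p53, and *Ppm1d*, the Wip1 phosphatase that switches p53 signalling off, did not pass the test in PKD (log2 fold changes 0.09 and 0.08, adjusted p = 0.505 and 0.363). *Chek1*, the checkpoint kinase 1 gene, was between 0.532 and 1.7 CPM in wildtype and between 2.38 and 4.19 CPM in PKD kidneys, without overlap. It rose by a log2 fold change of 1.53 ± 0.16 SE in PKD (adjusted p = 2.33e-09) and was lower in PKD + Salsalate than in PKD, at -0.56 ± 0.13 SE (adjusted p = 0.0292), with all 12 kidneys below the PKD median. *Chek1* is also among the genes the study picked from these samples. Of the 18 regulators 15 were tested, of which 4 rose and 4 fell in PKD, with a median log2 fold change of 0.03. Over all tested genes 24.1% rose and 25.0% fell, so this count is near the background. *Chek1* was under the minimum in every wildtype kidney and passed the filter only through the deleted groups. Without the filter, 5 of all 18 rose and 4 fell. *Chek2*, the other checkpoint kinase, rose by 0.40 (adjusted p = 7.46e-05). *Wrap53* (-0.36), the deubiquitinase gene *Usp7* (-0.21) and the kinase gene *Hipk2* (-0.42) fell on the log2 scale (adjusted p = 4.52e-05, 0.000254 and 0.00327). Against the 3 wildtype libraries not ending in R alone, 3 regulators rose and 1 fell, with *Usp7* at -0.05 and *Hipk2* at -0.06 (adjusted p = 0.449 and 0.752).

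Further p53 targets were read from 3 lists grouped by role, together 50 genes of which 45 were tested. In PKD 17 of the 45 rose and 8 fell (median log2 fold change 0.16), where 24.1% of all tested genes rose and 25.0% fell. Without the filter 19 of all 50 rose and 7 fell. In PKD + Salsalate against PKD 0 of the 45 passed edgeR's test (median -0.01). At an unadjusted p under 0.05 2 of the 45 were higher and 2 lower, and DESeq2 and limma-voom each called 1 gene, as higher. Of the 11 tested genes of arrest and survival, 7 rose and 1 fell (median 0.41). Of these 11, 2 were under the minimum in every wildtype kidney and passed the filter only through the deleted groups. Without the filter, 7 of all 13 rose and 1 fell. *Psrc1* (2.41) and *Gtse1* (1.83), which encode microtubule-associated proteins of dividing cells, and *Sfn* (1.13), which encodes 14-3-3 sigma, had the smallest adjusted p-values (2.06e-13, 4.78e-12 and 1.45e-08). *Cdkn1c*, the gene for the cyclin-dependent kinase inhibitor p57, fell by 0.43 on the log2 scale (adjusted p = 0.000241).

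Of the 13 tested genes on the cell death list, 7 rose and 2 fell in PKD, with a median log2 fold change of 0.23. The death receptor gene *Tnfrsf10b* (0.88), the apoptosome gene *Apaf1* (0.68) and the tumour necrosis factor receptor gene *Tnfrsf1a* (0.61) rose (adjusted p = 2.15e-07, 9.43e-07 and 4.86e-06). *Dcxr* and *Ei24* fell by 0.27 and 0.17 on the log2 scale (adjusted p = 0.0154 and 0.0263), but with only the 5 R libraries as wildtype the adjusted p was 0.162 and 0.32. *Dcxr* encodes a reductase of sugar metabolism, so not every gene on this list is a cell death gene. Of the 21 tested genes of DNA repair and metabolism 3 rose and 5 fell, with a median of -0.04, where 24.1% of all tested genes rose and 25.0% fell. The thiamine transporter gene *Slc19a2* (0.46), the translesion polymerase gene *Polh* (0.31) and the autophagy gene *Dram1* (0.24) rose (adjusted p = 0.00396, 0.0175 and 0.034). The mitochondrial ferredoxin reductase gene *Fdxr* (-0.83), the adenylate kinase gene *Ak1* (-0.52) and *Rrm2b* (-0.42), a subunit gene of ribonucleotide reductase, fell (adjusted p = 4.98e-07, 4.06e-09 and 0.00073). Against the 3 wildtype libraries not ending in R alone, *Slc19a2* was at 0.07, *Polh* at 0.16 and *Rrm2b* at -0.24 (adjusted p = 0.731, 0.356 and 0.135), and against the 5 alone *Dram1* was at 0.17 (adjusted p = 0.178).

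Genes that p53 lowers through p21 and the DREAM complex, nearly all of them needed for cell division, were higher in PKD although *Cdkn1a* was higher as well. Of the 14 tested, 13 rose and 0 fell (median log2 fold change 2.06), where 24.1% of all tested genes rose. However, 4 of the 14 were under the minimum in every wildtype kidney and passed the filter only through the deleted groups. Without the filter, 14 of all 15 genes of the list rose and 0 fell, where 12.2% of genes rose in that fit. *Mki67*, the Ki-67 gene, *Ccna2*, the cyclin A2 gene, and *Cdk1*, the mitotic kinase gene, had the smallest adjusted p-values (log2 fold changes 2.77, 2.06 and 2.41, adjusted p = 1.69e-14, 3.71e-13 and 9.17e-13). In PKD + Salsalate against PKD, where 0.329% of all tested genes were lower, 5 of the 14 fell and 0 rose (median -0.47). These were *Bub1* (-0.72, adjusted p = 0.0154), *Top2a* (-0.65, 0.0174), *Ccnb2* (-0.60, 0.0474), *Cdc20* (-0.56, 0.0194) and *Cdk1* (-0.54, 0.0468), which encode a spindle checkpoint kinase, topoisomerase II alpha, cyclin B2, an activator of the anaphase-promoting complex and the mitotic kinase. The study picked *Cdk1*, *Ccnb2*, *Cdc20* and *Top2a* among others from these samples, so the count for this list is not independent evidence of its direction. Without the filter 3 of 15 fell, without PKD replicate 10 it was 4 of 14, and with DESeq2 and limma-voom on all kidneys 8 and 9 of 14.

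Of the 14 tested genes of the Atf4 stress response, 9 rose and 0 fell in PKD (median log2 fold change 0.33), where 24.1% of all tested genes rose. Without the filter 8 of all 16 rose and 0 fell. With the filter, 9 rose and 1 fell with just the 5 R libraries as wildtype, and 8 rose and 0 fell with just the 3 others. In PKD + Salsalate against PKD 0 of the 14 passed edgeR's test (median -0.02). There 3 were higher and 2 lower at an unadjusted p under 0.05, and DESeq2 and limma-voom each called 1 gene, as lower. The hormone gene *Stc2* (2.07), the transcription factor gene *Atf3* (2.06) and the serine synthesis gene *Phgdh* (1.39) rose (adjusted p = 1.04e-11, 4.26e-09 and 5.77e-08). Of the 10 tested genes associated with senescence, 8 rose and 1 fell (median 1.58), 4 of the 10 having passed the filter only through the deleted groups. Without the filter 10 of all 12 rose and 1 fell. With the filter, 9 rose and 1 fell with just the 5 R libraries as wildtype, and 6 rose and 0 fell with just the 3 others. Of the 10, 0 passed edgeR's test with salsalate against PKD (median -0.07), where 2 were lower at an unadjusted p under 0.05 and DESeq2 and limma-voom called 0. The inhibitor of metalloproteinases *Timp1* (4.41), the metalloproteinase *Mmp3* (3.05) and the chemokine *Ccl2* (2.95) rose (adjusted p = 2.07e-12, 6.44e-11 and 7e-11). *Igfbp3*, a binding protein of insulin-like growth factors, fell by 0.34 on the log2 scale (adjusted p = 0.00474), and by 0.12 (adjusted p = 0.431) against the 3 wildtype libraries not ending in R alone. *Cdkn2a*, the p16 and p19Arf gene, was under the filter on low values.

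**Figure D3:**
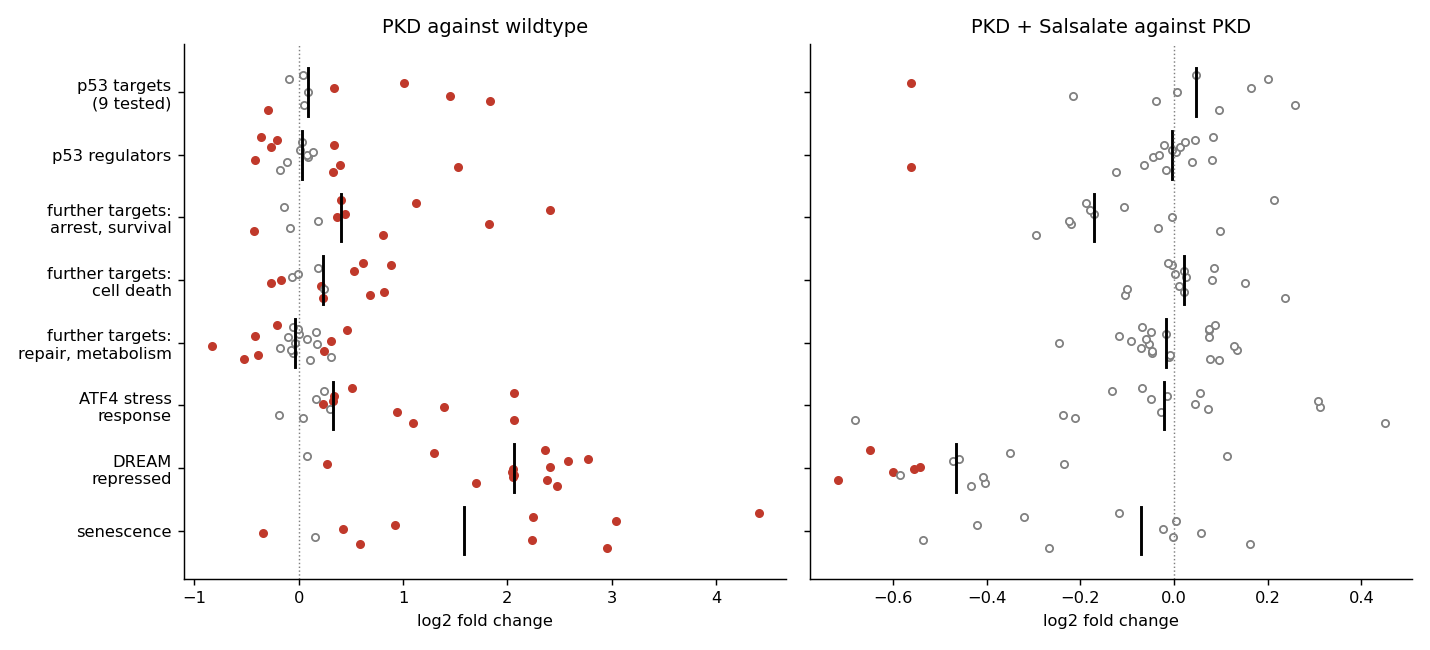
Fitted log2 fold change (x axes, with different ranges) of each tested gene in the p53 targets and the 7 pathway lists (rows), for PKD against wildtype (left) and PKD + Salsalate against PKD (right), with filled points for an adjusted p under 0.05 and a black bar for the median of the list. The DREAM list has its median at 2.06 on the left and -0.47 on the right, while that of the p53 targets is at 0.09 and 0.05.

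Markers of other cell types and of injury moved with the same comparisons, and their part in the results above was not tested. Over all tested genes 24.1% rose and 25.0% fell in PKD, and in the fit without the filter 12.2% of genes rose. The summed level of 7 tubular injury genes was between 370.1 and 700.9 CPM in wildtype, between 1325 and 2834 CPM in PKD and between 1156 and 3675 CPM in PKD + Salsalate kidneys, and 6 of the 7 rose in PKD, with the filter and without it. Of these 7, 3 were under the minimum in every wildtype kidney and passed the filter only through the deleted groups. For 5 fibroblast genes, all of which rose in PKD, the sums were between 180.4 and 245.4 CPM in wildtype and between 507.7 and 915 CPM in PKD kidneys. For 7 leukocyte genes, of which all 5 that were tested rose, they were between 84.46 and 122.6 CPM in wildtype and between 157.8 and 202.6 CPM in PKD kidneys. Of these 5, 1 was under the minimum in every wildtype kidney and passed the filter only through the deleted groups. Without the filter 6 of all 7 leukocyte genes rose and 1 fell. Of these 3 lists, 0 genes passed edgeR's test in PKD + Salsalate against PKD, where 3 injury genes were lower at an unadjusted p under 0.05 and limma-voom called 1 of them and DESeq2 0. Of 4 glomerular genes all 4 fell in PKD, but 2 did with just the 5 R libraries as wildtype and 3 with just the 3 others (sums between 139.8 and 217.3 CPM in wildtype and between 132.6 and 173.6 CPM in PKD), as did all 5 of the red cell genes (245 to 805.7 and 44.86 to 164.4 CPM). Kidney tubule markers were present throughout, with sums of 5 proximal tubule genes between 5910 and 11928 CPM and of 5 genes of the loop of Henle and distal nephron between 3493 and 5662 CPM over all kidneys. In PKD 1 and 0 of these genes rose and 1 and 2 fell, counts near the shares of all tested genes. This split turned with the wildtype libraries: of the proximal tubule genes 4 rose against the 5 ending in R alone and 3 fell against the 3 others, while of the loop of Henle and distal nephron genes 2 rose and 2 fell against the 5 and 4 fell against the 3. Of 4 endothelial genes 2 rose and 1 fell (sums between 195.6 and 295.2 CPM over all kidneys). Of 7 tested liver genes 5 were called higher in PKD, with sums of 121.8 to 218.5 CPM in wildtype and a median of 151 and a highest of 4684 CPM in PKD, the latter in replicate 10, without which 2 were called higher and 3 lower. With just the 5 R libraries as wildtype 4 liver genes were called higher, and with just the 3 others 1. No marker list had a gene at 0 in every kidney of a group. In whole kidneys a change in the number of cells of a type cannot be told apart from a change in RNA per cell.

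Whether the p53 targets varied together from kidney to kidney was asked among the 24 deleted kidneys, after subtracting the mean of each group on the log2 CPM scale. *Cdkn1a* was compared with 13 genes, with 100000 permutations within group and p-values adjusted by Benjamini-Hochberg over the 13. *Gdf15* followed *Cdkn1a* most closely of the members (Pearson's r = 0.861, Spearman's rho = 0.86, permutation p = 1e-05 for both, the smallest these permutations can give, adjusted p = 6.5e-05). It held within PKD (r = 0.909) and PKD + Salsalate kidneys (r = 0.847), and without the 2 kidneys farthest from the median of *Cdkn1a* (r = 0.817).

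*Phlda3* had r = 0.598 and rho = 0.586 with *Cdkn1a* (permutation p = 0.0029 and 0.00409, adjusted p = 0.00754 and 0.0106). Within the groups r of *Phlda3* was 0.172 in PKD and 0.897 in PKD + Salsalate kidneys, so the relation came mainly from the latter, and the difference between the groups was not tested. *Eda2r* had r = 0.547 (permutation p = 0.00688, adjusted p = 0.0149) but rho = 0.399 (permutation p = 0.059, adjusted p = 0.128), with r = 0.252 in PKD and 0.718 in PKD + Salsalate kidneys. For *Pmaip1* r was 0.422 and rho 0.33 (permutation p = 0.041 and 0.118, adjusted p = 0.0762 and 0.219). For *Mdm2*, *Ccng1*, *Bax*, *Trp53inp1* and *Sesn2* r was between 0.056 and 0.244 and the adjusted permutation p of r between 0.395 and 0.789. *Trp53* itself had r = 0.134 and rho = 0.183 (permutation p = 0.559 and 0.413, adjusted p = 0.626 and 0.502).

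Among the genes outside the p53 targets, *Cdkn1a* moved with *Havcr1*, the tubular injury gene for Kim-1 (r = 0.825, rho = 0.843, permutation p = 1e-05 for both, adjusted p = 6.5e-05), and with *Lcn2*, the lipocalin 2 gene (r = 0.738, rho = 0.713, permutation p = 0.00012 and 0.00033, adjusted p = 0.00039 and 0.00107). It also moved with *Mki67* (r = 0.784, rho = 0.754, permutation p = 2e-05 and 7e-05, adjusted p = 8.67e-05 and 0.000303). Kidneys with more of the arrest gene *Cdkn1a* tended to have more of the proliferation marker. Without the 2 kidneys farthest from the median of *Cdkn1a*, r was 0.76 for *Havcr1*, 0.651 for *Lcn2* and 0.779 for *Mki67*. Within PKD and PKD + Salsalate kidneys r was 0.901 and 0.791 for *Havcr1*, 0.624 and 0.795 for *Lcn2*, and 0.704 and 0.832 for *Mki67*.

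**Figure D4:**
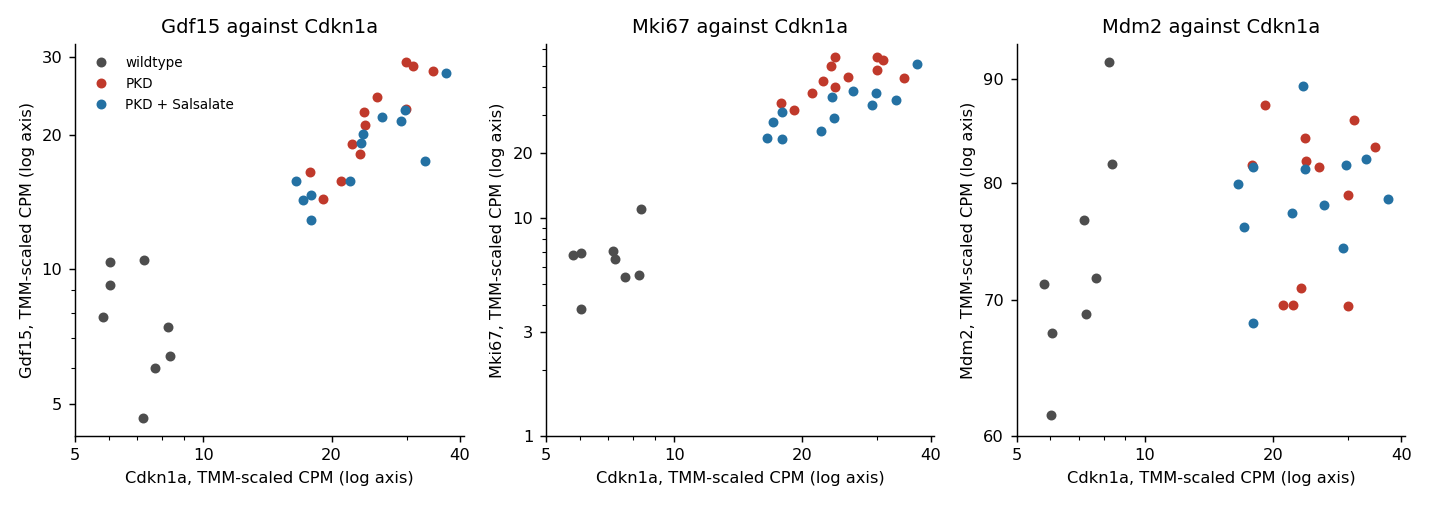
*Gdf15* (left), *Mki67* (middle) and *Mdm2* (right) against *Cdkn1a* in each kidney, in CPM on log axes, with 1 point per kidney coloured by group. Among the 24 deleted kidneys *Gdf15* and *Mki67* rise with *Cdkn1a* (r = 0.861 and 0.784 after group means were subtracted), while *Mdm2* does not follow it (r = 0.138).

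As a description over the same 24 kidneys, the genes outside the members with the highest r to *Cdkn1a* were *Bard1* (0.871), *Timp1* (0.854), *Tnfrsf12a* (0.847), *Sparc* (0.837) and *Mthfd2* (0.831). They encode the partner of Brca1, an inhibitor of metalloproteinases, the receptor of Tweak, a matrix protein and a mitochondrial folate enzyme. *Gdf15* ranked 2 among the 13960 other tested genes by this measure, *Phlda3* ranked 401 and *Pmaip1* ranked 1309, while *Mdm2* ranked 4703 and *Ccng1* 6126. Mean levels in wildtype were 0.769 CPM for *Bard1* and 0.524 CPM for *Timp1*, under the filter's minimum, so both were tested only through the deleted groups. All 5 named genes rose in PKD against wildtype, from a log2 fold change of 0.94 for *Mthfd2* to 4.41 for *Timp1* (adjusted p = 3.58e-07 and 2.07e-12), where 24.1% of all tested genes rose. In PKD + Salsalate against PKD their log2 fold changes were between -0.28 (*Bard1*, adjusted p = 0.442) and -0.03 (*Mthfd2*, adjusted p = 0.97).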

How the data were processed

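Poly(A) RNA of 32 whole mouse kidneys had been sequenced with a directional kit. The authors aligned reads to GRCm39 with STAR 2.7.5a, counted them by strand per Ensembl gene with HTSeq 0.12.4 and deposited these raw counts without normalization (tool versions from the submitters' processing notes). Groups came from the sample labels. Replicates are separate kidneys.

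Counts were analysed with edgeR 4.0.16 in R 4.3.3. A gene was tested if its log2 CPM exceeded 1 in 25% or more of the kidneys, the filter of the study's methods. Libraries were scaled by TMM (trimmed mean of M-values), and 1 quasi-likelihood fit held the 3 groups, with no covariates. Contrasts were tested 2-sided and adjusted by Benjamini-Hochberg over 13961 genes at 0.05. SE and 95% intervals are from the same fit. A CPM of a kidney is its count scaled by total and TMM factor, and RPKM also divides by exon length in GENCODE release M39 on GRCm39. The method was tested on simulated data. Correlations used log2 CPM with a prior count of 2 and 2-sided permutation tests in scipy 1.17.1.

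The 10 members, the 7 pathway lists and the 9 marker lists were chosen with earlier results of these data known. Named are the members, Trp53, Mdm4, Ppm1d and Chek1, up to 3 genes per list and direction with the smallest adjusted p in PKD against wildtype, each list gene called in PKD + Salsalate against PKD, and the 5 genes most correlated with Cdkn1a. Eda2r and the list genes under the filter were tested only in fits with another filter or none. Exons of Mdm2, Bax, Ccng1 and Gdf15 also overlap other annotated genes. The alternatives were DESeq2 1.42.0 size factors and Wald test, limma-voom (limma 3.58.1), filterByExpr, no filter, only the groups compared, a replicate block, each kidney left out, and either set of wildtype libraries alone. A fit with these sets as separate groups, and the list counts by other tools, with no filter and without PKD replicate 10, were added after the data were seen.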

Additional observations from a re-analysis of the deposited data

Results flagged for a closer look

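For 4 members the change in PKD depended on which wildtype libraries it was measured against, in a fit with the 5 libraries ending in R and the 3 others as separate groups. The effect of PKD against the 3 minus that against the 5 is the difference between the sets themselves. It was -0.70 on the log2 scale for *Sesn2* (edgeR's quasi-likelihood test, adjusted p = 0.000734), 0.64 for *Bax* (adjusted p = 0.00106), -0.63 for *Gdf15* (adjusted p = 0.0259) and 0.25 for *Mdm2* (adjusted p = 0.0186). Since 48.1% of all tested genes differed between the sets, 4 of 9 members is a share near the background. What the sets differ in is not given in the sources used here, and it was not tested.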

How the results depend on the processing

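In PKD against wildtype, *Cdkn1a*, *Gdf15* and *Pmaip1* kept their direction and an adjusted p under 0.05 under every alternative run, the 32 fits without 1 kidney and both wildtype sets included. The sign turned for *Mdm2* (-0.00063) and *Sesn2* (0.21) when compared to just the 5 wildtype libraries ending in R, and for *Bax* (0.11) when compared to just the 3 others. In PKD + Salsalate against wildtype it turned with the 3 alone for *Bax* (0.22) and *Sesn2* (-0.29). The causes were not tested.

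The number of members called in PKD + Salsalate against PKD, 1 here, was 0 with DESeq2 size factors, with no filter and with the replicate block, where the adjusted p of *Pmaip1* was 0.0507, 0.0646 and 0.111. Over all genes this comparison gave 81 calls, but 195 with only the groups compared, 146 with limma-voom, 199 with DESeq2's Wald test and 48 with the replicate block. Without 1 kidney the members called were 0 to 1 and all genes called 39 (without PKD + Salsalate replicate 5) to 226 (without PKD + Salsalate replicate 11).

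Without 1 kidney the log2 fold change of *Ccng1* ranged from -0.0042 to 0.09, of *Trp53inp1* from -0.02 to 0.10 and of *Sesn2* from -0.17 to 0.04 in PKD against wildtype. In PKD + Salsalate against PKD it ranged from -0.11 to 0.01 for *Cdkn1a* and from -0.01 to 0.02 for *Mdm2*. Among these fits *Mdm2* passed the test against wildtype without wildtype replicate 2 (adjusted p = 0.0497 in PKD and 0.045 in PKD + Salsalate), and it also passed against just the 3 libraries not ending in R. *Pmaip1* in PKD + Salsalate against wildtype lost it without wildtype replicate 2 or 4 or PKD + Salsalate replicate 11 (adjusted p = 0.069, 0.0571 and 0.0594). Replicate numbers do not pair the kidneys: same-numbered deviations correlated from -0.554 to 0.467 between PKD and wildtype, over 0.1 in 3 of 8 pairs. With the replicate block, *Trp53inp1* turned to -0.04 in PKD against wildtype, *Bax* there reached an adjusted p of 0.0775 and *Pmaip1* in PKD + Salsalate against wildtype one of 0.161, and with *Pmaip1* in PKD + Salsalate against PKD these were the calls of members that the block changed. The call of *Bax* in PKD against wildtype was also lost with no filter (adjusted p = 0.0571) and with only the groups compared (0.0743). *Eda2r*, with 3 to 10 counts in wildtype kidneys, is limited by depth.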
